A study of Homo sapiens with 21 samples.

Results

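The contacts of a single gene locus, that of LMO2 (ENSG00000135363), were described here together with those of CAPRIN1 (ENSG00000135387), the next protein-coding gene on the far side of the LMO2 enhancer. CAPRIN1 was named with earlier results of these data known. The paper had already described more contact between this locus and the CAPRIN1 promoter after CTCF depletion, so the CAPRIN1 rise given below is not an unselected finding. The files of the LMO2 locus were taken by its name and not by any measured value, as 1 of 51 loci compared across the series. Its data were the 7 pooled Tri-C libraries that carry its name, of 357 files used in all. The 4 enhancer libraries held cells at 0h, 24h and 96h and CTCF-depleted cells at 96h, and the 3 CBS libraries held cells at 0h, 24h and 96h.

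All libraries came from BLaER, a human leukemia cell line of B cell origin that turns into macrophage-like cells when a hormone-dependent transcription factor is switched on. The 0h cells were grown without the factors that start this conversion (17β-estradiol, IL-3 and CSF-1), and the 24h and 96h cells were grown with them for 24 and 96 hours. The CTCF-depleted cells were a BLaER subclone in which CTCF carries an auxin-inducible degron (CTCF-AID), given auxin from the start of the 96 hours. Per the labels, the 96h library they were compared with came from BLaER cells without a named subclone, so effects of the subclone, of auxin and of CTCF loss cannot be told apart. Each library pooled 3 biological replicates, so no value has a replicate check, every interval covers counting error only, and every test compares pooled libraries and not conditions. Contact counts hold no measure of CTCF protein, of LMO2 RNA or of cell type markers, so the labels could not be checked against them.

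LMO2 is a transcriptional co-factor of blood cells that bridges DNA-binding proteins, and it is known for its part in haematopoietic development and in leukemia. CAPRIN1 is an RNA-binding protein of stress granules. Enhancers are thought to act on promoters through physical contact, and loops of chromatin extruded by cohesin and halted at CTCF-binding sites (CBSs) set the stretch of DNA within which such contacts are frequent. Pairs of CTCF motifs that point at each other are the usual anchors of such loops. Tri-C captures ligation products of a chosen fragment, the viewpoint, and keeps reads with at least 2 further fragments, the reporters, so that it shows which places met the viewpoint at the same time.

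The enhancer viewpoint was an NlaIII fragment of 265 bases in intergenic sequence upstream of LMO2, at chr11:33930108-33930372 (hg38). The canonical start of LMO2, which is transcribed from the minus strand, lay at 33892076, 38.2 kb from the enhancer. The second viewpoint, the boundary CBS, was a fragment of 169 bases at chr11:33857884-33858052, 72.3 kb from the enhancer and just past the last base of LMO2. The start of CAPRIN1, on the plus strand at 34051731, lay on the opposite side of the enhancer, 121.5 kb from it and 193.8 kb from the boundary CBS. Between enhancer and CAPRIN1, 40 kb from the enhancer, was the place called the peak below, at chr11:33964240-33976240, which holds no protein-coding gene. It was chosen after the counts from both viewpoints were seen, and its bounds are those of the window 40 kb from the enhancer. The window with most counts from the boundary CBS, among those at least 28 kb from that site, overlaps it. Its changes as seen from the enhancer were thus known when it was named. The 3 fragments are shown because the changes described below were joined at these places. The peak fragment, at chr11:33971057-33971222, was the one with most counts of the 58 in the peak, summed over the CBS libraries. All are written 5′ to 3′ on the plus strand, with matches to the CTCF motif core in capitals.
Enhancer viewpoint fragment: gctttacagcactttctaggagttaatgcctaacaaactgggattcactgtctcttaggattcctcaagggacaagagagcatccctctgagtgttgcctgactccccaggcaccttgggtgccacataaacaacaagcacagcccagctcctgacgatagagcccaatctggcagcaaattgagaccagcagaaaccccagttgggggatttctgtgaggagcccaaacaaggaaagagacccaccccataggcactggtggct
Boundary CBS viewpoint fragment: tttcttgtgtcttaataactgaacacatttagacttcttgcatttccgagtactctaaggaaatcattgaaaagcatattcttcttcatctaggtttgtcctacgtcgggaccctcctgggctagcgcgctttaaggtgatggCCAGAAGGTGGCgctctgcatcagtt
Peak fragment: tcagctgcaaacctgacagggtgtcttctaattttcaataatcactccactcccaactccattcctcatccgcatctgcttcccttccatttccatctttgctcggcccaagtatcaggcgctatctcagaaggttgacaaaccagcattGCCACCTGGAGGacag

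Both strands were searched for CCA, any 2 bases, AG, any 2 bases and GGC, and for a looser spelling that leaves the A after CC open and so includes every match of the first. The boundary CBS fragment held 1 match of both, on the plus strand at chr11:33858027-33858038. Of 11834 regions of the same length within 1 Mb, 0.296% held the first spelling and 1.07% the looser one. The peak fragment held no match of the first spelling and 1 of the looser one, on the minus strand at chr11:33971207-33971218, where 1.06% of 12048 regions of its length held one. Read along the chromosome, the match at the boundary CBS and that at the peak faced each other, with LMO2 and the enhancer between them. The enhancer fragment held neither. In the 12 kb around the LMO2 start neither spelling was found, and the 12 kb around the CAPRIN1 start held 1 match of the first and 2 of the looser spelling, both on the plus strand. Of 166 such stretches, 21.1% held the first and 56.6% the looser spelling, so a match in a stretch of this length is common.

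The CAPRIN1 promoter is shown because its contacts changed in the CTCF-depleted library. It covers the 250 bases before the start, chr11:34051481-34051730 on the plus strand (RefSeq, GRCh38.p14), with the motif GGGCGG, searched on both strands, in capitals.
CAPRIN1 promoter: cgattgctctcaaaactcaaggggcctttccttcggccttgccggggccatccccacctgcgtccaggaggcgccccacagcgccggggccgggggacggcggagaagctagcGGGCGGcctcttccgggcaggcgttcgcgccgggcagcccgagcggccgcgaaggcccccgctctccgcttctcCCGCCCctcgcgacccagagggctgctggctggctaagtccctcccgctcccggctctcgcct
It held 2 matches of GGGCGG, a motif present in 42.6% of 35116 promoters, and no match of CCAAT or TATAAA, which were present in 32.0% and 10.7%. It held 29 CG dinucleotides, and 14.1% of promoters held at least as many.

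A count was 1 pair of reporters seen with the viewpoint. The total of a library was the sum of its counts whose reporters both lay no more than 1 Mb away from the viewpoint, and levels are given per 100000 of it or as a percentage. The enhancer totals were 46546, 38825 and 33396 at 0h, 24h and 96h and 51292 in the CTCF-depleted library, and the CBS totals were 69037, 73794 and 56736 at 0h, 24h and 96h. Distant counts, in which viewpoint and reporters were all separated by over 10 kb, made up 24.0% of the enhancer total at 0h, 20.03% at 24h and 21.2% at 96h but 14.8% in the CTCF-depleted library. All window counts below are distant counts with a reporter in the 12 kb around a site. A window was called changed between 2 libraries where an exact conditional binomial test, two-sided, gave an adjusted p under 0.05 and the ratio of its count to the rest of the total differed at least 1.5-fold. Log2 values are of that ratio.

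Contacts of the enhancer with the LMO2 promoter rose as the cells converted. The window at the canonical start held 829 counts at 0h, 1214 at 24h and 1335 at 96h, or 1.78%, 3.13% and 4.0% of the total. Each level lay above the interval of the one before it. The rise from 0h was called at 24h (log2 ratio 0.83, 95% interval 0.70 to 0.96, exact binomial test, adjusted p = 3.95e-36), where 11.7% of the promoter windows of all loci were called higher, and at 96h (1.20, 1.07 to 1.33, adjusted p = 1.30e-79), where 13% were. The step from 24h to 96h was 0.37, under the 1.5-fold threshold, where 4.85% were called higher. The change at 96h ranked 11th of the 51 target promoters, whose median was 0.59 (quartiles -0.34 and 1.13), and that at 24h ranked 7th. Per the paper, the targets were promoters of B cell-specific and of macrophage-specific genes, so the median and the ranks are over genes of both kinds.

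Of the LMO2 starts, the canonical one had the largest rise. In bins of 2 kb, the bin 2 kb upstream of the start, toward the enhancer, held 155, 345 and 427 counts over the time course. In the CTCF-depleted library it held 447, but its level was lower there than at 96h (871 against 1279 per 100000 of the total). Among the bins around the start it held the most counts at 24h, at 96h and in the CTCF-depleted library. At 0h it did not, and the bin 6 kb into the gene held 202. At the proximal starts of LMO2, inside the gene and 60.2 kb from the enhancer, the window held 602, 710, 631 and 686 counts in the same order, with log2 ratios of 0.51 at 24h and 0.56 at 96h over 0h, neither of which reached 1.5-fold. The innermost start, whose window overlaps that of the proximal starts and that of the boundary CBS, gave 0.37 and 0.21.

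**Figure D1:**
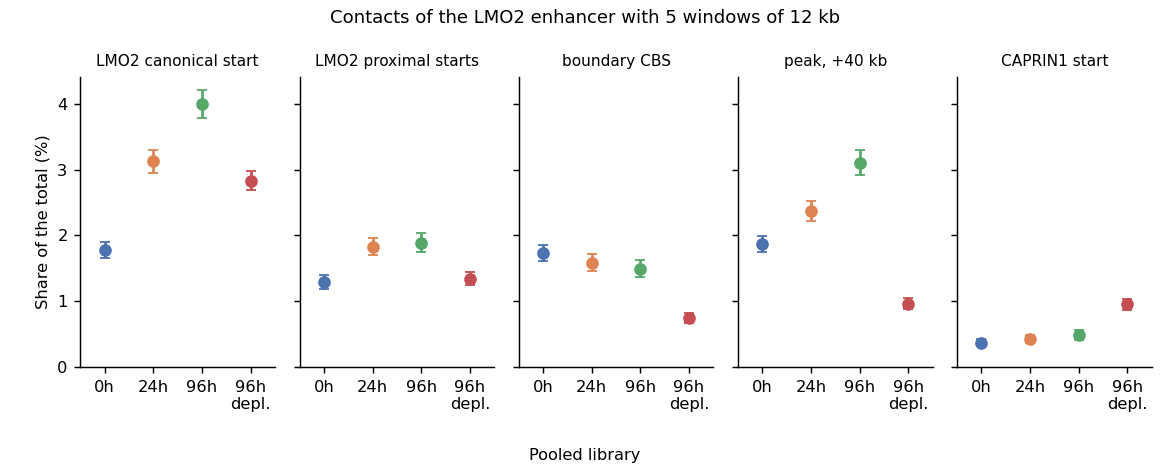
Share of the enhancer total (%, vertical axis) in 5 windows of 12 kb for the 4 pooled enhancer libraries, with exact 95% intervals for counting error. The canonical LMO2 start climbed from 1.78% at 0h to 4.0% at 96h and stood at 2.83% in the CTCF-depleted library (depl.), while CAPRIN1 stayed between 0.365% and 0.479% over the time course and stood at 0.951% in the CTCF-depleted library.

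CAPRIN1 was not called changed over the same time. Its promoter window held 170 counts at 0h, 164 at 24h and 160 at 96h, or 0.365%, 0.422% and 0.479% of the total, and the intervals of neighbouring time points overlapped. The log2 ratio was 0.21 at 24h (adjusted p = 0.314, exact binomial test) and 0.39 at 96h (0.07 to 0.71, adjusted p = 0.0339), the latter under 1.5-fold. The mirror of this window, at the same distance on the LMO2 side, held 337, 185 and 176 counts, or 0.724%, 0.476% and 0.527% of the total. Its fall from 0h was called at 24h (log2 ratio -0.61, called in 6 of 10 settings) but not at 96h (-0.46, called in 0 of 10). The enhancer made 4.88 LMO2 counts for each CAPRIN1 count at 0h, 7.40 at 24h and 8.34 at 96h. CAPRIN1 thus took 17.0% of the counts of both promoters at 0h, 11.9% at 24h and 10.7% at 96h (Fisher's exact test, p = 7.49e-06 for 96h against 0h), a comparison that does not depend on the total.

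Most of the other neighbours lost contact with the enhancer. Of the 6 named protein-coding genes other than LMO2 with a start within 500 kb of it, 4 were called lower at 96h than at 0h and none higher. Over all loci 22.2% of promoter windows were called lower. Along this locus 66.2% of 80 windows of 12 kb were, so the falls were not particular to these promoters. The median log2 ratio of the 6 genes was -0.76 against -0.09 over all promoter windows. FBXO3, a substrate receptor of a ubiquitin ligase, went from 185 counts at 0h to 124 at 24h and 68 at 96h (log2 ratio at 96h -0.96). CD59, an inhibitor of the complement membrane attack complex, went from 182 to 78 and 74 counts (-0.82), and ABTB2, from 146 to 73 and 63 (-0.73). C11orf91 had 121, 65 and 50 counts (-0.79). NAT10, an RNA acetyltransferase that follows CAPRIN1, had 164, 132 and 108 counts (-0.12, adjusted p = 0.631, exact binomial test). FBXO3 was called lower in all 10 settings, CD59 and C11orf91 in 8 and ABTB2 in 5. A further gene known only as ENSG00000284969 had 83, 64 and 61 counts and was not called.

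Along the whole locus, 2 of 80 windows of 12 kb were called higher at 96h than at 0h (2.5%) and 53 lower (66.2%). The first was the window 40 kb from the enhancer on the LMO2 side, at the LMO2 promoter, which went from 703 to 1147 counts (log2 ratio 1.21). The second was the peak at the same distance on the CAPRIN1 side, which went from 867 counts at 0h to 920 at 24h and 1037 at 96h (0.76, 0.62 to 0.89). The largest falls named by rule lay far out, 316 and 340 kb away on the LMO2 side (-2.23 and -2.20, from 68 to 10 and from 86 to 13 counts) and 364 and 376 kb away on the other (-1.80 and -1.70). All 5 windows between boundary CBS and enhancer had positive log2 ratios, from 0.25 to 1.21, while of the 34 windows beyond the boundary CBS 25 were called lower, with a median of -0.89. The share of reporters on the LMO2 side that lay beyond the boundary CBS was 59.0% at 0h, 42.6% at 24h and 37.3% at 96h, and the share on the other side that lay at or beyond CAPRIN1 was 55.3%, 45.1% and 41.2%.

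**Figure D2:**
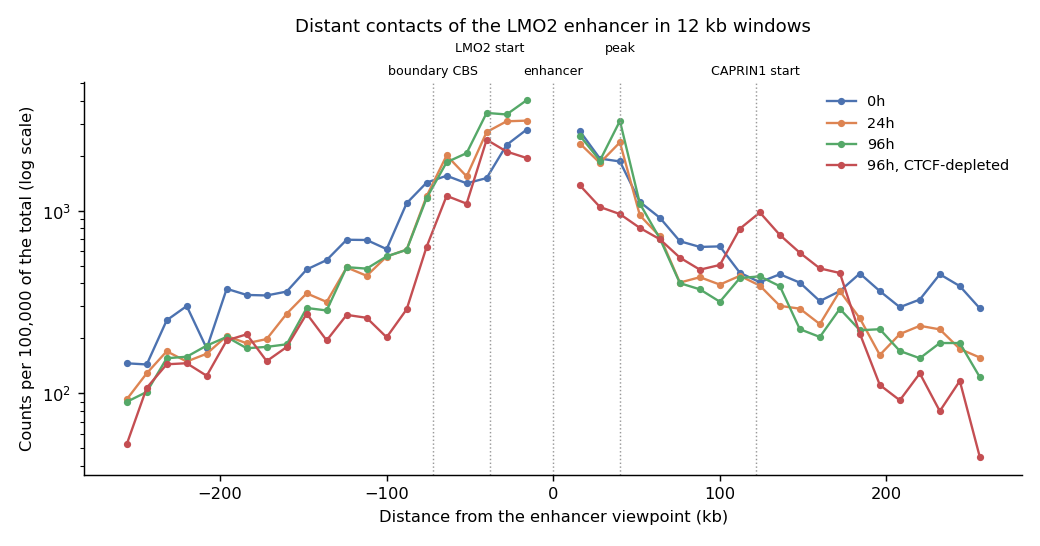
Distant counts per 100000 of the total (log scale) in 12 kb windows against distance from the enhancer viewpoint in kb, for the 4 pooled enhancer libraries, with dotted lines at the named sites and no points within 10 kb. From 0h to 96h the lines rise at the LMO2 start and at the peak and fall on both outer flanks, and the CTCF-depleted line is lowest of all at the peak (959 per 100000) and highest around the CAPRIN1 start.

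In the CTCF-depleted library, contacts of the enhancer with CAPRIN1 were higher. The CAPRIN1 window held 488 counts against 160 at 96h, or 0.951% (0.869 to 1.04) against 0.479% (0.408 to 0.559) of the total. This level exceeded those of all 3 other libraries with no overlap of intervals. The log2 ratio to 96h was 0.99 (0.74 to 1.26, exact binomial test, adjusted p = 2.23e-14), where 12.2% of the promoter windows of all loci were called higher and 25% lower. It ranked 83rd of 944 promoter windows, with a median over all of -0.18. Against 0h it was 1.39 and ranked 28th of 997. In 12 kb windows no other named neighbour was called higher or lower than at 96h: NAT10 had 214 counts against 108 (0.37), FBXO3 117 against 68 (0.16), C11orf91 87 against 50 (0.17), CD59 100 against 74 (-0.19) and ABTB2 80 against 63 (-0.28). With distant counts as the total, NAT10 (0.91), FBXO3 (0.69) and C11orf91 (0.70) were called higher, NAT10 also with each fragment pair counted once (0.82), and with 30 kb windows ABTB2 was called lower (-0.67). The NAT10 window takes in the end of the CAPRIN1 gene, so the 2 are not separate places. The mirror window on the LMO2 side went the other way, with 161 counts against 176 (-0.75), a call that held in 8 of 10 settings and was lost with distant counts as the total (-0.23) and with each fragment pair once (-0.49).

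In 12 kb windows the contacts with LMO2 itself were not called lower than at 96h. The canonical window held 1454 counts against 1335, or 2.83% against 4.0% of the total (log2 ratio -0.51, -0.62 to -0.40). That was smaller than the median of -0.93 over the 51 target promoters, 78.4% of which were called lower and 0% higher, and it ranked 8th. As a share of distant counts only, which were fewer in this library, the ratio for LMO2 was 0.034 (adjusted p = 0.632, exact binomial test), so its direction rests on the total, and it was called lower with 7.5 kb (-0.63) and 30 kb windows (-0.68). Against 0h the LMO2 window was called higher (0.69), with 10.5% of promoter windows and 9.8% of target promoters called higher. The proximal starts (-0.51) moved by as much as the canonical start, and the innermost start was called lower (-0.69).

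Between the 2 promoters the balance moved toward CAPRIN1, in a ratio that does not depend on the total. The enhancer made 2.98 LMO2 counts for each CAPRIN1 count in the CTCF-depleted library against 8.34 at 96h. CAPRIN1 took 25.1% (23.2 to 27.1) of the counts of both promoters against 10.7% (9.18 to 12.4) at 96h (log2 ratio 1.49, Fisher's exact test, p = 5.22e-28), and against 17.0% at 0h (p = 4.31e-07). LMO2 was still the promoter with more counts in every library.

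The boundary CBS and the peak both had fewer counts in the CTCF-depleted library. The boundary CBS window had held 805 counts at 0h, 616 at 24h and 499 at 96h, a slight fall that was not called (-0.21 at 96h over 0h, where 41.2% of the boundary windows of all loci were called higher and 3.92% lower), and it held 379 in the CTCF-depleted library. Its log2 ratio to 96h was -1.03 (-1.22 to -0.83, exact binomial test, adjusted p = 2.00e-25), where 86.3% of the boundary windows of all loci were called lower and 1.96% higher, and the call was lost with distant counts as the total (-0.52). The peak fell from 1037 counts to 492, or from 3105 to 959 per 100000 (-1.73, -1.88 to -1.57). Among the 78 windows at least 28 kb from the enhancer it ranked 3rd by count at 0h, 24h and 96h, and 7th in the CTCF-depleted library.

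**Figure D3:**
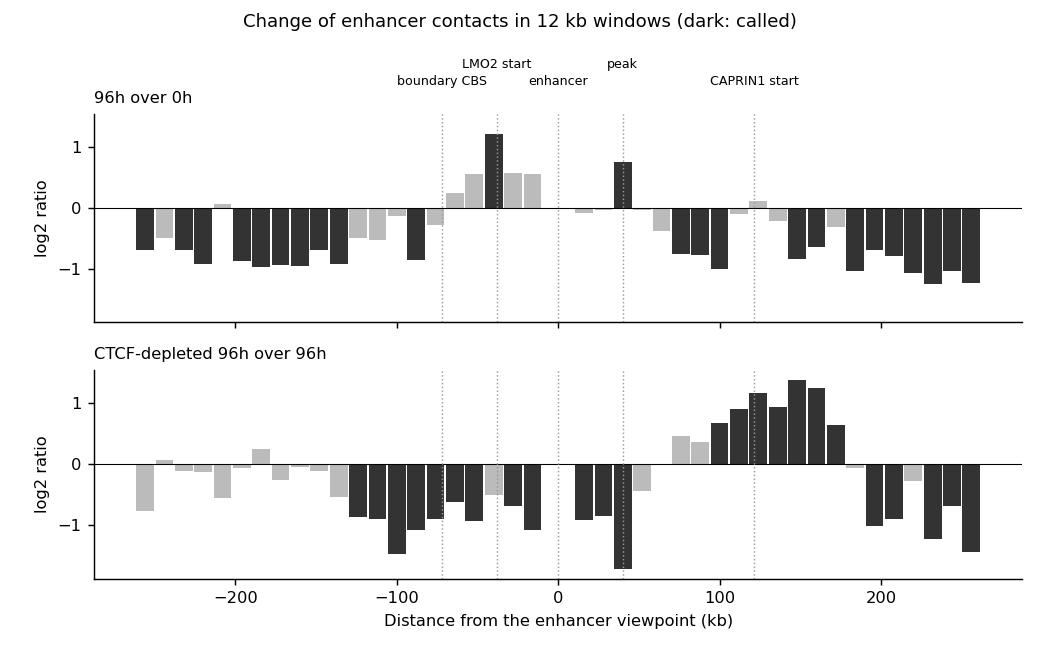
Log2 ratio of the count in each 12 kb window to the rest of the total against distance from the enhancer viewpoint in kb, for 96h over 0h (upper panel) and CTCF-depleted over 96h (lower panel), with called windows dark. In the upper panel only the windows at the LMO2 start and at the peak are dark and positive (1.21 and 0.76), and in the lower panel the peak stands at -1.73 and a run of dark positive bars surrounds and follows the CAPRIN1 start.

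Of the 80 windows along the locus, 8 were called higher in the CTCF-depleted library than at 96h (10%) and 29 lower (36.2%). The number called in each direction rests on the total within 1 Mb, the only one used for these windows. Distant counts were a smaller share of it in the CTCF-depleted library (14.8%) than at 96h (21.2%). The 4 largest rises named by rule lay next to each other 124, 136, 148 and 160 kb from the enhancer, with 502, 378, 302 and 248 counts against 146, 129, 75 and 68 (log2 ratios 1.17, 0.93, 1.39 and 1.24). Of the other 4, those at 100, 112 and 172 kb adjoined this run, and the last lay 460 kb away on the LMO2 side. The run covers the CAPRIN1 gene, which extends from 121.5 to 172.4 kb. Over the whole gene, a region chosen after these values were seen, the counts were 730, 464 and 403 over the time course and 1329 in the CTCF-depleted library, so its level was highest at 0h within the time course and higher still in the CTCF-depleted library (log2 ratio to 96h 1.12, 0.96 to 1.29). The next gene, NAT10, had 554, 285, 234 and 290 counts (-0.31), and ABTB2, which follows it, 1772, 849, 642 and 587 (-0.76). The largest falls were at 352 kb (-1.92) and at the peak on the CAPRIN1 side, and 100 and 292 kb away on the LMO2 side (-1.48 each).

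On the CAPRIN1 side, 50.1% of reporters lay at or beyond the CAPRIN1 window in the CTCF-depleted library against 41.2% at 96h (log2 ratio 0.52, Fisher's exact test, p = 7.70e-25). These reporters include those in the CAPRIN1 gene, and of the 30 windows beyond the CAPRIN1 window 4 were called higher and 14 lower, with a median log2 ratio of -0.75. Beyond the boundary CBS lay 41.8% against 37.3% of reporters on that side (0.27, Fisher's exact test, p = 1.27e-08), and the log2 ratio was 0.013 when 20 kb instead of 10 kb around the viewpoint were left out. Both shares stayed under their values at 0h, 55.3% and 59.0%. They are shares of a side and not of the total. The CAPRIN1 side includes the peak, whose level was lower in the CTCF-depleted library (959 against 3105 per 100000). Set against totals of 51292 and 33396, the reporters were 3612 against 2525 at or beyond CAPRIN1 and 3160 against 2814 beyond the boundary CBS. Relative to the total, neither was higher than at 96h. Reporters of 1 read are not independent, so these p-values are too small.

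A triple was a count with a reporter in each of 2 windows, so that 3 places met in 1 read. Enhancer, LMO2 and CAPRIN1 met in 8, 14 and 17 counts over the time course and in 74 in the CTCF-depleted library. This triple was called higher at 96h than at 0h, on these few counts (log2 ratio 1.52, 0.28 to 2.99, exact binomial test, adjusted p = 0.0132). In the CTCF-depleted library its log2 ratio to 96h was 1.47 (0.73 to 2.36, exact binomial test, adjusted p = 0.000174). The share of LMO2 counts that also held CAPRIN1 was 0.965%, 1.15%, 1.27% and 5.09%. Its intervals at 96h (0.744 to 2.03) and in the CTCF-depleted library (4.02 to 6.35) did not overlap. The share of CAPRIN1 counts that also held LMO2 was 4.71%, 8.54%, 10.6% and 15.2%. Here the intervals overlapped between neighbouring time points, and between 96h (6.31 to 16.5) and the CTCF-depleted library (12.1 to 18.7). Most CAPRIN1 counts of every library did not hold LMO2. With the proximal starts in place of the canonical one the counts were 5, 10, 5 and 31 (1.90, adjusted p = 0.00282, exact binomial test).

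Enhancer, LMO2 and boundary CBS met in 27, 55, 50 and 35 counts. This triple was called higher at 24h (1.28) and 96h (1.36) over 0h and lower in the CTCF-depleted library than at 96h (-1.13), a call that was lost with distant counts as the total (-0.61). Triples with the peak were added after its values were seen and are given without a test. Enhancer, LMO2 and peak met in 29 counts at 0h, 91 at 24h and 121 at 96h, or 62.3, 234 and 362 per 100000 (log2 ratio at 96h 2.53, 1.95 to 3.18), and in 45 counts, 87.7 per 100000, in the CTCF-depleted library (-2.04 to 96h, -2.58 to -1.55). Enhancer, boundary CBS and peak met in 56, 80, 87 and 21 counts (1.11 at 96h over 0h, and -2.65 in the CTCF-depleted library over 96h). Peak and CAPRIN1 met at the enhancer in 7, 13, 14 and 11 counts.

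**Figure D4:**
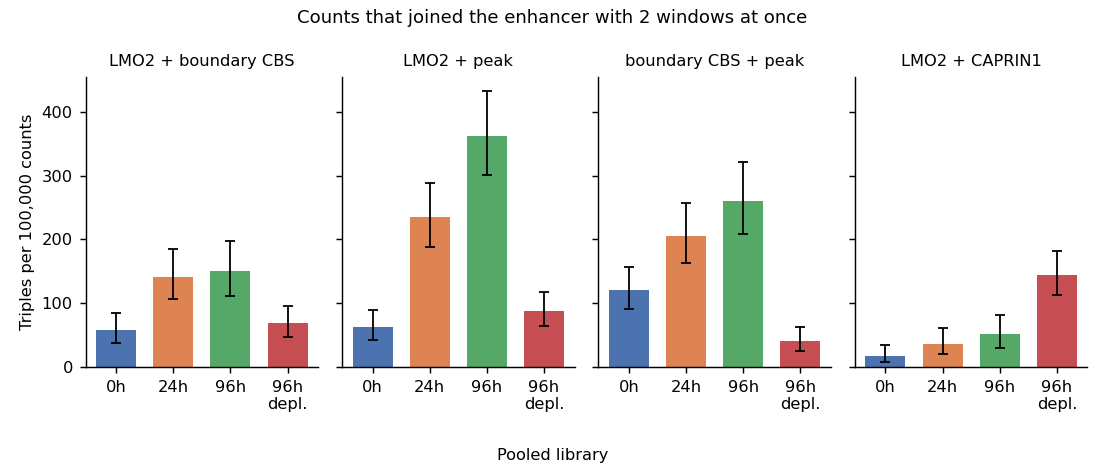
Counts per 100000 of the enhancer total (vertical axis) that joined the enhancer with 2 windows at once, in the 4 pooled libraries, as bars with exact 95% intervals for counting error. LMO2 with the peak rises from 62.3 to 362 between 0h and 96h and is at 87.7 in the CTCF-depleted library (depl.), where LMO2 with CAPRIN1 is at 144 against 50.9 at 96h.

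The partner of an LMO2 count was its other reporter, and its place changed with time and in the CTCF-depleted library. Between boundary CBS and enhancer lay 27.8%, 35.8% and 39.3% of these partners at 0h, 24h and 96h and 29.0% in the CTCF-depleted library (Fisher's exact test, p = 4.11e-08 for 96h against 0h and 1.21e-08 for depleted against 96h). In or beyond the CAPRIN1 window lay 21.5%, 14.5%, 13.1% and 23.8% (Fisher's exact test, p = 4.31e-07 and 3.00e-13 in the same order). Beyond the boundary CBS lay 25.5%, 17.0% and 16.5% at 0h, 24h and 96h and 16.6% in the CTCF-depleted library.

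From the boundary CBS, the windows of both promoters and of the enhancer were not called changed between 0h and 96h. The LMO2 window held 1227, 1241 and 1139 counts at 0h, 24h and 96h (log2 ratio at 96h over 0h 0.18, under 1.5-fold), and the enhancer window held 870, 786 and 648 (-0.14), where 37.3% of the enhancer windows of all loci were called higher and 3.92% lower. CAPRIN1 held 469, 584 and 322 counts (-0.26, under 1.5-fold), where 11% of promoter windows were called higher and 11.5% lower. NAT10, with 607, 561 and 316 counts, was called lower at 96h (-0.66). CAPRIN1 took 27.7%, 32.0% and 22.0% of the counts of both promoters, and this share fell between 24h and 96h (log2 ratio -0.73, Fisher's exact test, p = 1.84e-10). Of the 80 windows along the locus none was called higher at 96h than at 0h (0%) and 16 were called lower (20%), 13 of them among the 24 beyond CAPRIN1.

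The peak, on the other side of LMO2 and of the enhancer, was chosen after the counts from both viewpoints were seen. Its rank by counts from the boundary CBS is therefore no independent support for it, and neither are its changes as seen from the enhancer. The window 112 kb from the boundary CBS held 3674 counts at 0h, 4206 at 24h and 2861 at 96h, or 5322, 5700 and 5043 per 100000, and ranked 1st of 78 windows at least 28 kb away in all 3 libraries. Counts that joined the boundary CBS with LMO2 and the peak were 127 at 0h, 182 at 24h and 194 at 96h, or 184, 247 and 342 per 100000. Those with LMO2 and the enhancer were 46, 45 and 45, and those with LMO2 and CAPRIN1 15, 12 and 15. The triple with the peak was added after its values were seen and is given without a test.

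**Figure D5:**
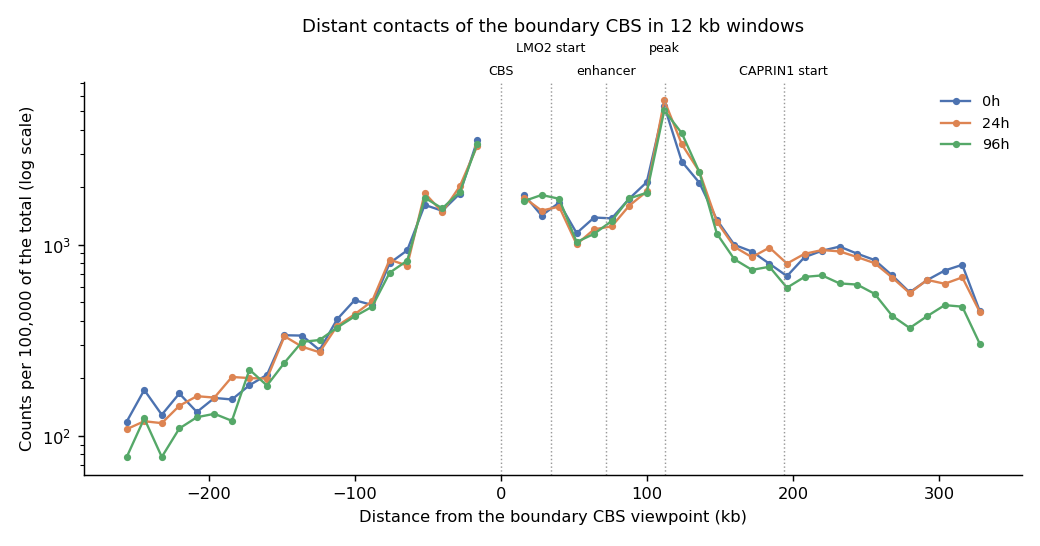
Distant counts per 100000 of the total (log scale) in 12 kb windows against distance from the boundary CBS viewpoint in kb, for the 3 pooled CBS libraries, with dotted lines at the named sites. The lines lie close together up to the CAPRIN1 start, with the highest point beyond the windows next to the viewpoint at the peak (5043 to 5700 per 100000), and the 96h line is lowest beyond CAPRIN1.

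Among the 51 target promoters, those whose log2 ratios at 24h over 0h, at 96h over 0h and in the CTCF-depleted library over 96h were most like those of LMO2 (0.83, 1.20 and -0.51) were KLF6 (1.06, 1.08 and -0.44), a zinc finger transcription factor, KDM7A (0.82, 1.35 and -0.81), a histone demethylase, and NFKBIZ (0.74, 1.13 and -0.97), a nuclear regulator of NF-kappaB. The Euclidean distances over these 3 comparisons were 0.27, 0.33 and 0.47.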

How the data were processed

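The deposited files hold, for each viewpoint and pooled library, the count of each pair of NlaIII fragments seen with the viewpoint. The authors processed the reads with CapCruncher in its capture mode on hg38, merged the replicates and counted every pair of reporters of a read, so counts of a read are not independent. All 259449 fragment entries of the LMO2 files had both ends at an NlaIII site of hg38.

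Here raw counts were used, without a correction for fragments per window. Windows were compared by the exact conditional binomial test with Benjamini-Hochberg adjustment over the promoter windows of 51 loci (protein-coding genes of GENCODE 44, at least 20 counts over both libraries), over boundary or enhancer windows, over 12 kb windows along the locus out to 500 kb, or over the LMO2 triples. Log2 ratios had 0.5 added to each count. Shares have exact Clopper-Pearson intervals at 95%. Fisher's exact test was added for ratios of 2 counts, reach and partners after the data were seen, since the binomial test takes the comparator as fixed, and these were judged by p under 0.05 alone, with no minimum fold. Named were LMO2, CAPRIN1, the protein-coding genes within 500 kb, the 4 called windows of largest rise and fall with at least 50 counts, and the 3 target promoters most like LMO2 in Euclidean distance. The members and lists were chosen with earlier results of these data known. Of LMO2 and CAPRIN1, only CAPRIN1 was matched in the RefSeq promoter table. A total of 9 alternative settings were tried (windows of 7.5 and 30 kb, exclusions of 5 and 20 kb, 2 other totals, each fragment pair once, counts divided by 3, fragments within 2 kb of the viewpoint left out), and the other LMO2 starts in place of the canonical one. Python 3.11.15, numpy 2.4.6, scipy 1.17.1 and matplotlib 3.10.9 were used, and the test was checked on simulated independent counts. That check cannot show how the test behaves with replicate variation or with several counts of a read.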

Additional observations from a re-analysis of the deposited data

How the results depend on the processing

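Of 860 recomputed values, 764 kept direction and side of the threshold, 42 kept direction but lost the call, 22 gained one and 32 changed sign. The cause of a change was not tested. The CAPRIN1 rise in the CTCF-depleted library over 96h was called in all 10 settings (log2 0.99 to 1.57), as was the LMO2 rise at 96h over 0h in the 10 settings at the canonical start. No paired analysis was possible because the files pool the replicates, and for the same reason no replicate could be left out. Some triples rested on as few as 2 counts.

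For LMO2 from the enhancer, the call at 24h over 0h was lost with 30 kb windows (0.55), and at the proximal (0.51) and innermost start (0.37). At 96h over 0h it was lost at these starts (0.56 and 0.21). For 96h over 24h the innermost start gave -0.17. CTCF-depleted over 96h was called lower with 7.5 kb windows (-0.63), 30 kb windows (-0.68) and at the innermost start (-0.69), and was 0.034 with distant counts as total. CTCF-depleted over 0h lost its call with 30 kb windows (0.16) and at the proximal starts (0.049) and was -0.49 at the innermost start.

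With 30 kb windows CAPRIN1 at 24h over 0h was -0.14, and with 7.5 kb windows it was called at 96h over 0h (0.62). The boundary CBS at 24h over 0h was 0.15 with distant counts as total and 0.091 at 96h over 24h with 7.5 kb windows. With distant counts as total its calls in the CTCF-depleted library were lost over 96h (-0.52) and over 0h (-0.56). From the boundary CBS, LMO2 at 24h over 0h was 0.082 with 7.5 kb and 0.0090 with 30 kb windows, and with the whole chromosome as total CAPRIN1 at 96h over 24h was called (-0.62) and the enhancer was -0.042. NAT10 at 96h over 0h was 0.010 with 7.5 kb windows and 0.054 with distant counts as total. In the CTCF-depleted library over 96h, ABTB2 was 0.25 and CD59 0.34 with distant counts as total, 0.0093 and 0.10 with each pair once, and FBXO3 was -0.18 and C11orf91 -0.13 with 30 kb windows.

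Enhancer, LMO2 and CAPRIN1 at 24h over 0h was called with 30 kb windows (0.82) and distant counts as total (1.29). Enhancer, LMO2 and boundary CBS at 96h over 24h was -0.029, -0.095 and -0.0026 with 7.5 kb windows, 30 kb windows and distant counts as total. In the CTCF-depleted library over 96h its call was lost with distant counts as total (-0.61), each pair once (-0.59) and counts divided by 3 (-1.14), and over 0h it was called with distant counts as total (0.93). Enhancer with canonical and proximal starts was -0.035 at 96h over 24h with 30 kb windows, and in the CTCF-depleted library over 96h 0.13 with distant counts as total and also with each pair once (0.126). From the boundary CBS, the triple of LMO2 and enhancer at 24h over 0h was 1.13 with 7.5 kb and 0.37 with 30 kb windows, at 96h over 0h it was called with 7.5 kb windows (1.51), and at 96h over 24h it was -0.027 with 30 kb windows. Enhancer, LMO2 and peak in the CTCF-depleted library over 0h was -0.32 with 7.5 kb windows.

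The CAPRIN1 gene at 96h over 24h was -0.044 and -0.012 with exclusions of 5 and 20 kb, -0.074 with distant counts and -0.015 with the chromosome as total, and -0.069 with each pair once. The share of CAPRIN1 in both promoters at 96h over 24h had a p under 0.05 with 7.5 kb windows (-0.45), with no fold required. From the boundary CBS at 24h over 0h it missed that p with 7.5 kb windows (0.13) and with counts divided by 3 (0.30). The share of reporters on the CAPRIN1 side at 96h over 24h missed it with an exclusion of 20 kb (-0.023) and with counts divided by 3 (-0.072), as did that beyond the boundary CBS in the CTCF-depleted library over 96h with an exclusion of 20 kb (0.013).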
